A study of Mus musculus with 9 samples.

Results

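The comparison described here is metformin against vehicle in wild-type hematopoietic progenitors of mouse bone marrow, read out as the sites that carry histone H3 trimethylated at lysine 27 (H3K27me3). Its members were the 4 wild-type libraries of the series, 2 from mice given vehicle (WT VEH) and 2 from mice given metformin (WT MET), of 9 samples in all. The cells were taken as lineage-negative and c-Kit-positive, were not cultured, and were collected from transplanted female mice after 1 month of treatment. Every group carried the Mx1-cre transgene (B6.Cg-Tg(Mx1-cre)1Cgn/J) on C57BL/6, together with Dnmt3a+/+ in the wild-type groups and with the Dnmt3a fl-R878H/+ allele in 2 further groups, RH VEH and RH MET, each of 2 libraries. Mx1-cre is an interferon-inducible Cre that is also active outside the blood. The sources used here do not say whether Cre was induced, whether donor cells were separated from those of the host, or whether the 2 libraries of a group came from separate animals. P-values therefore reflect only how far these libraries differ from each other, and part of that may be technical. Of the 18556 regions that the authors merged over all 8 libraries with intervals, 16431 held an interval in at least 1 of the 4 wild-type libraries, and these are the regions compared.

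H3K27me3 is written by Polycomb repressive complex 2 and marks genes that are held silent, such as regulators of other lineages. In blood progenitors it lies in broad domains over developmental genes and in small domains at the promoters of lineage genes, and it is largely missing from active promoters. Metformin is a biguanide that inhibits mitochondrial complex I and lowers hepatic glucose output. It enters cells through organic cation transporters.

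A gene or region is said to be called in a library where a deposited interval overlaps it by at least 1 bp, and to separate the groups where it was called in both libraries of one and in none of the other. Several of the separating sites lay on promoters. In 66 genes called in WT MET alone, a whole 300-base window around a start was covered in WT MET 1 and WT MET 2. None of that window was covered in WT VEH 1 or WT VEH 2. The 6 promoters printed are a choice from these. They are the 250 bases before each start, 5′ to 3′, from RefSeq on GRCm38.p6, the assembly of mm10, and the capitals mark each CG dinucleotide. The starts are those of RefSeq transcripts, and those of Tek, Slc2a12 and Ldb1 lie inside the span of the gene.
Dntt promoter, chr19:41029025-41029274, plus strand: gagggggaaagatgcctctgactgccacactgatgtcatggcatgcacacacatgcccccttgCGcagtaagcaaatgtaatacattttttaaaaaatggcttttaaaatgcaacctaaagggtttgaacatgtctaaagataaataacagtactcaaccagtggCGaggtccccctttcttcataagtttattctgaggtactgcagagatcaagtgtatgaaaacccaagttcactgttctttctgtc
Tek promoter, chr4:94739039-94739288, plus strand: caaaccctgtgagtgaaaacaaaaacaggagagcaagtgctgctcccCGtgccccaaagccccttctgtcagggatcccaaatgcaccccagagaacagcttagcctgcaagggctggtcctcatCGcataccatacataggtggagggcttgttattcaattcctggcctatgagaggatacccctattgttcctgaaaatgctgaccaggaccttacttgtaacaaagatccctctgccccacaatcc
Cxcl9 promoter, chr5:92328080-92328329, minus strand: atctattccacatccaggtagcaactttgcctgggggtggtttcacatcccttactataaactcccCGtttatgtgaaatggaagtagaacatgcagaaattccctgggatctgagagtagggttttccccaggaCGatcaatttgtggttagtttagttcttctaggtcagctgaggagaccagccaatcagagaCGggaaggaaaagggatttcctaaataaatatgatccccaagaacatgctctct
Slc2a12 promoter, chr10:22644761-22645010, plus strand: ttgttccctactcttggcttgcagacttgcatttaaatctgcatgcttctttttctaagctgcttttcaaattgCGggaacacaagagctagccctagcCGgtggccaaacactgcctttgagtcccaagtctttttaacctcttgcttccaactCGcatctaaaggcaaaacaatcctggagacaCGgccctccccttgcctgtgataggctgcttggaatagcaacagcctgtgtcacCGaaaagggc
Nap1l5 promoter, chr6:58907127-58907376, minus strand: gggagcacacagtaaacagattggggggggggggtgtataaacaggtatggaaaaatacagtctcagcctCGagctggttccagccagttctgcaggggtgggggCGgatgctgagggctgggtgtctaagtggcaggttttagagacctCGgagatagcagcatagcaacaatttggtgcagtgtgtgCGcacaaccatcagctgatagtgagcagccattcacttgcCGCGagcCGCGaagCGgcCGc
Ldb1 promoter, chr19:46045312-46045561, minus strand: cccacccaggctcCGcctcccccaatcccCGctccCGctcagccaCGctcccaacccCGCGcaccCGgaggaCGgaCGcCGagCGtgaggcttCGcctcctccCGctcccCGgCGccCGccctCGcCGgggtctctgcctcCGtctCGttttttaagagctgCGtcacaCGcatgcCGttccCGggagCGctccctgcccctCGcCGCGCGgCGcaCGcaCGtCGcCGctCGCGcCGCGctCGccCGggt
The first 5 belong to genes of the lists described later. Ldb1 was chosen after its values were seen, as a CG-rich promoter beside 5 with 10 CGs or fewer. This contrast comes from the choice: Arhgef11, another list gene whose whole window was covered, held 53 CGs over its 300 bases. The motif searched was CG, which reads the same on both strands, and 93.4% of 21263 promoters of this length held at least 1. The median was 10, Dntt and Tek had 2 each, Cxcl9 had 3, Slc2a12 had 5, Nap1l5 had 10 and Ldb1 had 40. Fewer CGs than in Ldb1 were found in 98.3% of promoters, and fewer than in Dntt or Tek in 15.1%.

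Among 1005 miRNA hairpins of the reference, 224 were called in at least 1 wild-type library, 122 in all 4, 11 in WT MET libraries alone (4.91%) and 2 in WT VEH libraries alone (0.893%). These shares are near those of all regions, 4.37% and 0.517%. Of these, Mir493 and Mir208b lay inside separating regions and the others did not. Their mature forms are shown with the seed, bases 2 to 8, in capitals.
mmu-miR-493-5p: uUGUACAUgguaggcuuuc
mmu-miR-493-3p: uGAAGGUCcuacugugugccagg
mmu-miR-208b-5p: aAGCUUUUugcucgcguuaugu
mmu-miR-208b-3p: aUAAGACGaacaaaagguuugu
The 4 seeds differ from each other. Mir493, of the imprinted Dlk1-Dio3 domain, lay with Rtl1 in a region of 15.0 kb (chr12:109571801-109586800) that was covered over 10.4 kb in WT MET 1 and 11.6 kb in WT MET 2, and over 0 kb in both WT VEH libraries. Mir208b lies in an intron of Myh7, the slow cardiac myosin gene, and its region of 8.8 kb (chr14:54972401-54981200) was covered over 7.4 kb and 8.6 kb in WT MET 1 and 2 and over 0 kb in WT VEH. A library without an interval may still carry the mark below the limit of the caller, and a mark present in fewer cells cannot be told apart from a weaker mark in all of them.

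The labelled cell type was checked against marker genes, for which a silencing mark reads in the opposite sense to expression. Among 10 progenitor genes, Runx1 and Spi1 had no interval in any wild-type library, and Kit, Flt3, Gata2, Cebpa and Meis1 had one in all 4. Kit itself was covered over 7.11% and 7.36% of its span in WT VEH 1 and 2 and 5.89% and 8.58% in WT MET 1 and 2. Cd34 was called in WT VEH 2 and both WT MET libraries and not in WT VEH 1. Of 8 stromal and endothelial genes 6 were called in all 4, and Pecam1 and Cdh5 in none. Over all 21887 protein-coding genes, 6088 were called in all 4. All 4 libraries called Cd3e, Cd3g and Cd4 of 5 T-cell genes, Ebf1 and Pax5 of 5 B-cell genes and Alas2 of 5 erythroid genes. None of the 5 mast cell and basophil genes was called in any of them. These counts per list were the same in the 4 libraries for progenitor, stromal, mast cell, B-cell and erythroid genes, ranged from 3 to 4 for T-cell genes and from 0 to 2 of 5 for neutrophil genes. Hoxd11, Pax6 and Gata4, developmental genes marked in most tissues outside their own, were covered over 91.2% to 100% of their spans, and the housekeeping genes Actb and Gapdh held no interval.

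The 4 libraries differed in size. WT VEH 1 held 12009 intervals, WT VEH 2 held 16259, WT MET 1 held 16572 and WT MET 2 held 16694. The WT MET libraries had the higher numbers, but WT VEH 2 lay closer to them than to WT VEH 1, and the mean difference of 2499 intervals had an exact permutation p of 0.333 (two-sided), the smallest that 2 libraries against 2 allow. Intervals covered 141.7 Mb, 144.7 Mb, 147.8 Mb and 185.9 Mb in the same order, a mean difference of 23.6 Mb (exact permutation p = 0.333). The difference rested largely on WT MET 2: without this library it was 4.59 Mb, and without WT MET 1 it was 42.7 Mb. On the X chromosome the groups overlapped, with 9.56 Mb and 15.2 Mb in WT VEH 1 and 2 and 12.9 Mb and 19.5 Mb in WT MET 1 and 2. The number of reads behind each library is not known, and its part in the results was not tested other than by the setting with equal interval numbers given below.

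**Figure D1:**
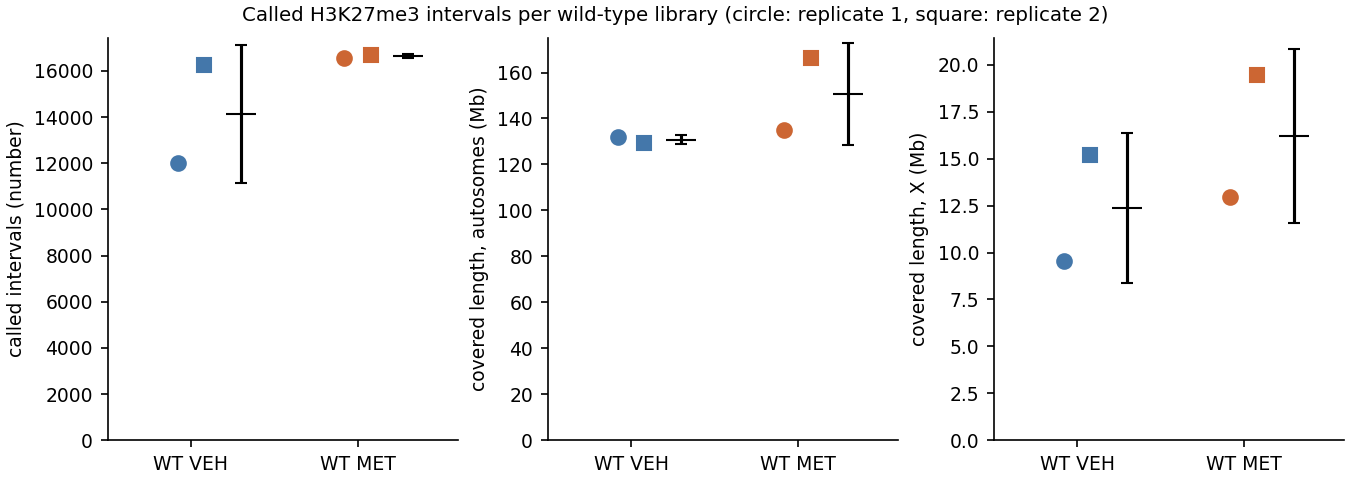
Number of called intervals (left), covered length on the autosomes (middle) and covered length on the X chromosome (right), each in its own unit on an axis from 0, for the 4 wild-type libraries. Points are libraries (circle replicate 1, square replicate 2), dashes and bars are the mean and SD of 2 libraries. WT VEH 1 has the fewest intervals (12009) and WT MET 2 the largest covered length.

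More regions separated the groups with the calls in WT MET than the other way. Both WT MET libraries and neither WT VEH library called 718 regions, 4.37% of the 16431, and the reverse held for 85, 0.517%. All 4 libraries called 7983 regions. The other ways of pairing the same libraries gave counts of like size: 665 regions were called in WT VEH 2 and WT MET 2 and in neither replicate 1, and 110 the other way, while WT VEH 2 with WT MET 1 gave 385 and WT VEH 1 with WT MET 2 gave 176. In total 803 regions separated by treatment, 775 by replicate number and 561 by the crossed pairing. Where 3 libraries called a region, WT VEH 1 was the one without it in 1360 regions, WT VEH 2 in 302, WT MET 1 in 225 and WT MET 2 in 113. The counts for treatment also moved with each library left out, since fewer calls are then asked for. They were 1020 and 1094 without WT VEH 1, which turned the order, 2078 and 404 without WT VEH 2, 2486 and 198 without WT MET 1, and 1931 and 310 without WT MET 2.

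With the same number of intervals in every library, the 12009 with the highest summits, the counts by treatment were 320 and 183, a total of 503 against 448 by replicate number and 520 by the crossed pairing. Of the 718 regions, 199 still separated the groups under that setting, and 33 of the 85. With a minimum summit height of 15, 586 and 6 regions separated the groups, a total of 592 against 379 by replicate number and 152 by the crossed pairing. Of the 718 regions, 86 were among those 586. The limit was the same for every library, while the median summit height was 15 in WT VEH 1 and WT VEH 2, 15.5 in WT MET 1 and 17 in WT MET 2. The part of this difference in scale in the counts was not tested. On the autosomes alone the counts were 600 and 67, a total of 667 against 567 and 456.

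**Figure D2:**
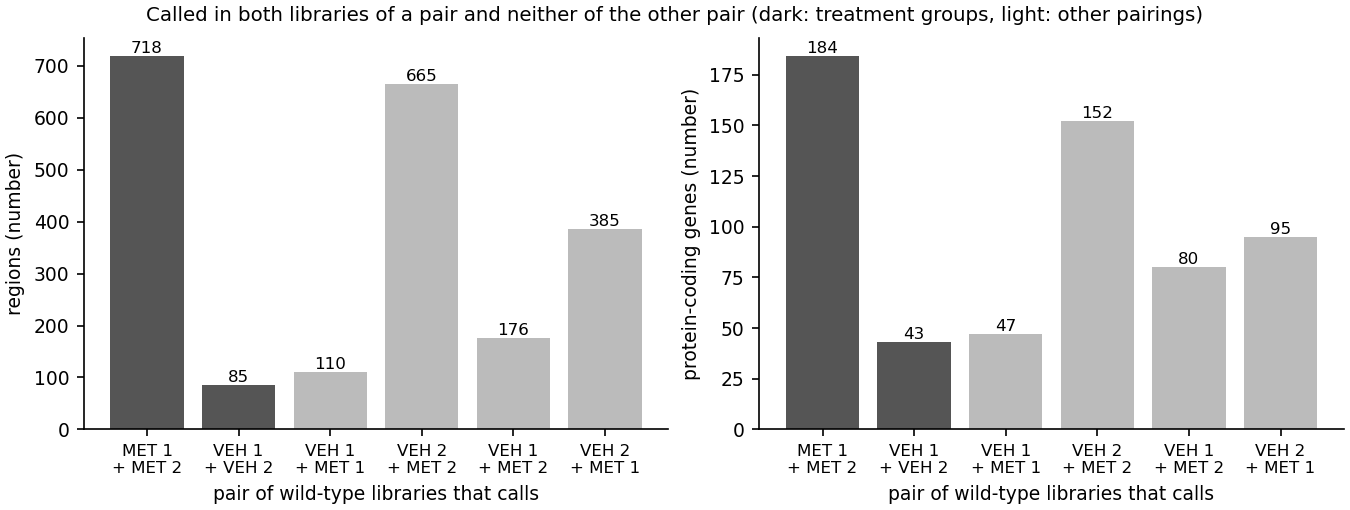
Regions (left) and protein-coding genes (right) called in both libraries of a pair and in neither of the other pair, in numbers from 0, for the treatment groups (dark bars) and the other pairings of the same 4 libraries (light bars). The bar for WT MET 1 with WT MET 2 (718 regions, 184 genes) stands beside that for WT VEH 2 with WT MET 2 (665 regions, 152 genes).

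The regions called in WT MET alone were narrow and had low summits, as were those called in WT VEH alone. Their median width was 7.8 kb and 7.4 kb, against 15.6 kb for regions called in all 4. The summit of an interval was ranked among all intervals of its library, on the authors' summit height, and the lower of the ranks in the calling libraries was at a median percentile of 15.4 in the 718 regions, 7.90 in the 85 and 63.0 in regions called in all 4. Regions of the other pairings were alike in width (medians from 6.2 kb to 9.4 kb) and rank (9.67 to 15.4). Of the 718 regions 46 ranked above the 50th percentile in both WT MET libraries, and of the 85 a single one did so in both WT VEH libraries. Intervals of the other group lay close by: the nearest was at a median of 16.9 kb from the 718 regions and 10.4 kb from the 85, and within 10 kb of 37.5% and 47.1% of them.

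**Figure D3:**
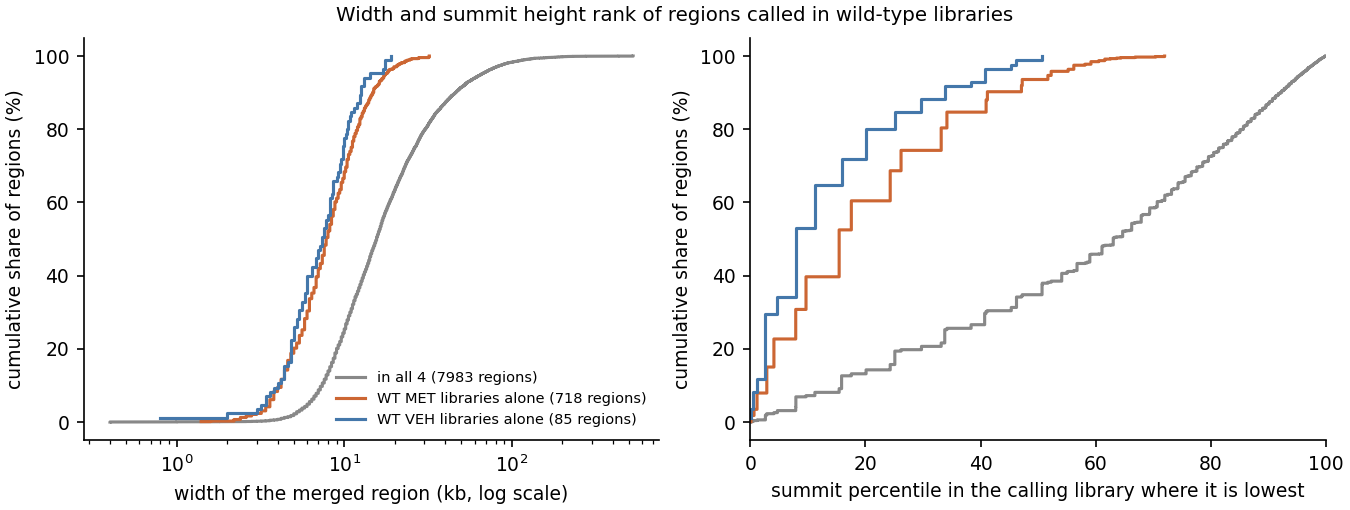
Cumulative share of regions (%) by width in kb on a log scale (left) and by summit percentile in the calling library where it is lowest (right), for regions called in all 4 wild-type libraries, in WT MET alone and in WT VEH alone. Both curves of separating regions lie to the left of the regions called in all 4, whose median width is 15.6 kb. Width is that of the merged region, which spans the intervals of every library that calls it.

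Separating regions were more often on the X chromosome than regions called in all 4, as were regions called in any single library. The X held 118 of the 718 (16.4%), 18 of the 85 (21.2%), 6.25% of regions called in all 4 and 22.7% of those called in 1 library. In the sets of the other pairings it held 7.39% to 28.9%. Protein-coding genes were overlapped by 46.8% of the 718, 34.1% of the 85 and 78.1% of the regions called in all 4.

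The 10 regions with the largest cover are described next, ranked by the covered length in the WT MET library that covers less of the region. The first, chr15:73924401-73952000, lay 84.5 kb from the nearest protein-coding gene, a predicted one, and was covered over 19.2 kb and 15.8 kb in WT MET 1 and 2. On the X, a region over Gnl3l, a nucleolar GTP-binding protein gene (chrX:150966601-150998800), was covered over 14.2 kb and 18.0 kb. It was not called by either WT VEH library, although an interval of one of them ended 0.8 kb away, and RH VEH 2 covered 16.6 kb of it.

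Olfactory receptor genes account for a pair of these regions, both within one cluster on chromosome 11. The region over Olfr312 and Olfr311 (chr11:58824401-58843000) was covered over 13.0 kb and 18.6 kb in WT MET 1 and 2, and that over Olfr324 (chr11:58589801-58604600) over 14.8 kb and 12.2 kb. Each of the 3 genes was covered over 100% of its span in both WT MET libraries and 0% in both WT VEH libraries. Their summits were low, at heights of 8 to 16, and the intervals of WT VEH came within 0.8 kb of the Olfr324 region.

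Samd4, an RNA-binding translational repressor gene, held a region on chromosome 14 (chr14:46989801-47012600) covered over 11.4 kb and 13.2 kb in WT MET 1 and 2, over 9.8 kb in RH VEH 2 and over 21.8 kb in RH MET 2. Fgl1, which encodes a liver-secreted fibrinogen-like protein, held one (chr8:41214001-41226000) covered over 11.2 kb and 11 kb, and 4.8 kb in RH MET 1. Intervals of WT VEH were 74.2 kb away from it.
The others lay between genes. A region 63.3 kb from Dio3, the deiodinase gene at the end of the imprinted domain that also holds Rtl1 and Mir493, was covered over 22.0 kb and 12.2 kb (chr12:110344401-110366400) and in no RH library. One 99.9 kb from Rassf10 (chr7:113057401-113072000) was covered over 13.6 kb and 13.0 kb, also in no RH library. Those nearest to Rtl6 (19.0 kb away) and Tmsb4x (262 kb away) were covered over 11.4 kb to 16.0 kb in the WT MET libraries.

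The highest-ranking summits among the 718 lay in or by genes. Notch4, a Notch receptor gene of endothelium, held the highest, in its part from chr17:34579201 to 34587600, with percentiles of 73.4 in WT MET 1 and 72.0 in WT MET 2 and a cover of 7.8 kb and 8.0 kb. Notch4 was also called in all 4 libraries elsewhere in its span. Of the whole span, 48.3% and 47.5% was covered in WT VEH 1 and 2 and 75.9% and 76.3% in WT MET 1 and 2. Whether the site continued the intervals that both groups share was not tested. A site over Cdk2ap2 and Pitpnm1 (chr19:4098601-4103400) ranked at 70.4 and 77.5, one 2.74 kb from Abcc4, an efflux transporter gene, at 66.8 and 69.3, and one over Bnip5 at 68.1 and 64.4. A site over the zinc finger genes Zkscan7 and Zfp660 (chr9:122897001-122904200) ranked at 63.6 and 68.3. It was covered over 4.2 kb and 6.4 kb in WT MET 1 and 2, over 3.2 kb and 7.0 kb in RH VEH 1 and 2, and over 0 kb in the other 4 libraries.

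Of 8236 protein-coding genes called in at least 1 wild-type library, 184 were called in both WT MET libraries and neither WT VEH library (2.23%) and 43 the other way (0.522%). Pairing by replicate number gave 152 and 47, and the crossed pairing 95 and 80. Equal interval numbers gave 123 and 67 genes (a total of 190 against 172 and 200), summits of height 15 or more gave 264 and 24 (a total of 288 against 189 by replicate number and 147 crossed), and with 1 library left out the counts ranged from 327 to 571 and from 108 to 220. Of the 184 genes, 118 lay in a separating region and 61 in a region that at least 1 library of the other group called outside the gene. Such genes are said to lie at an edge. Whether the intervals over them continued those of the other group was not tested. The other 5 were called through different regions. Of the 43 genes, 7 lay in a separating region and 35 at such an edge. The cover was small in most: under 10% of the span in 110 of the 184 and in 29 of the 43, and the whole span in both calling libraries in 11 and 0.

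The genes covered over 100% of their spans in both WT MET libraries and 0% in both WT VEH libraries were short. Besides the 3 olfactory receptor genes they include Bdkrb1, the bradykinin B1 receptor gene (1.42 kb), Tnp2, the spermatid transition protein 2 gene (0.721 kb), Spem2 (1.93 kb), Rd3l (2.13 kb) and 4 predicted genes. Bdkrb1 lay in a separating region with summit heights of 13 and 11 in WT MET 1 and 2. Tnp2 lay at the edge of a strong domain that both groups called, with heights of 68 and 59. Spem2 was also at an edge, with heights of 11 and 137. Rd3l was covered over 100% in both RH MET libraries as well, and over 0% in both RH VEH libraries.

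Of 21263 promoter windows, 6618 were called in at least 1 wild-type library, 147 in both WT MET libraries and neither WT VEH library (2.22%) and 44 the other way (0.665%). Pairing by replicate number gave 118 and 57 windows, and the crossed pairing 106 and 72. The windows called in WT MET alone held a median of 8 CGs over 300 bases, those in WT VEH alone 10, those called in all 4 18, those called in none 10, and those that follow replicate number 8 and 14. Of the 184 genes, 145 had a window, and the window was covered in both WT MET libraries in 77.

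At the 6 promoters printed above the intervals were discrete, each with its own summit in both WT MET libraries. Dntt encodes terminal deoxynucleotidyl transferase, which adds bases at V(D)J joints in lymphoid progenitors. Its gene lies at chr19:41029275-41059525. The region (chr19:41026801-41035600) was covered over 8.0 kb in WT MET 1 and 6.2 kb in WT MET 2, and over 0 kb in both WT VEH libraries, whose nearest interval was 51.8 kb away. The covered share of the Dntt span was 18.3% and 17.6%, and the summits had heights of 14 and 18. In the R878H libraries the calls were the other way round: RH VEH 1 and 2 covered 3.2 kb and 5.0 kb of the region, without the promoter window, and both RH MET libraries 0 kb.

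Tek encodes Tie2, the angiopoietin receptor of stem cells and endothelium. Its gene spans 136 kb from chr4:94739086 to 94874976. The region at its start (chr4:94737801-94742000) was covered over 2.6 kb in WT MET 1 and 2.2 kb in WT MET 2, with heights of 13 and 21, and no WT VEH interval lay within 305.8 kb. RH VEH 2 covered 3.8 kb of it and RH MET 1 covered 3.2 kb, so the R878H groups were split within themselves.

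Cxcl9 encodes an interferon-induced chemokine that attracts T cells. Over its promoter and gene (chr5:92323801-92331000) WT MET 1 covered 4.8 kb and WT MET 2 covered 6.6 kb, RH MET 1 and 2 covered 3.8 kb and 3.2 kb, and all 4 vehicle libraries 0 kb. Both summits in wild type were low (heights of 11 and 12), and Cxcl9 was called in no wild-type library when every library was held to the same number of intervals. The receptor gene Cxcr5 was also called in WT MET alone, over 26.2% and 5.76% of its span.

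Slc2a12 encodes the glucose transporter GLUT12. Its promoter region (chr10:22643201-22646800) was covered over 3.0 kb in WT MET 1 and 2.4 kb in WT MET 2, with heights of 19 and 20, and in none of the other 6 libraries. Nap1l5 is an imprinted gene within an intron of Herc3. Its region (chr6:58905401-58908200) was covered over 2.4 kb and 1.6 kb in WT MET 1 and 2, with heights of 16 and 19, over 2.4 kb in RH VEH 1 and over 1.0 kb in RH MET 1. Ldb1 encodes a cofactor that joins GATA1 and TAL1 at erythroid enhancers. Its CG-rich promoter region (chr19:46045201-46049400) was covered over 2.8 kb and 4.2 kb in WT MET 1 and 2, with heights of 20 and 15, and over 2.2 kb in RH MET 1. Slc2a12, Nap1l5 and Ldb1 still separated the groups with the same number of intervals in every library and with a minimum summit height of 15. Dntt and Tek did so under the first setting, and under the second were called in a single WT MET library.

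**Figure D4:**
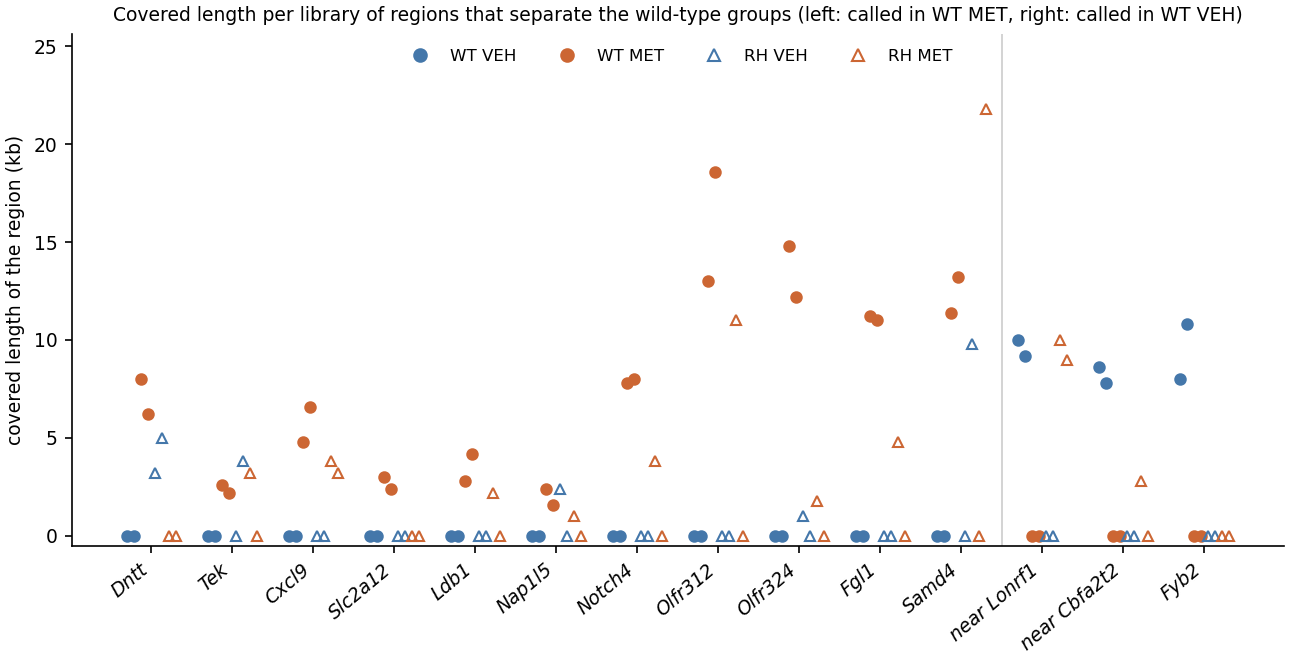
Covered length in kb of named regions in each of the 8 libraries, left of the line regions called in both WT MET libraries and neither WT VEH library, right of it the reverse. Filled circles are wild-type and open triangles R878H libraries, blue vehicle and orange metformin. Dntt is covered in both RH VEH libraries, and the region near Lonrf1 in both RH MET libraries.

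Gene lists were read as counts of members beside the same counts over all genes. Of all 21887 protein-coding genes, 8236 were called in at least 1 wild-type library and 6088 in all 4. Of 50 lists, 18 held a gene called in WT MET alone, 3 held one called in WT VEH alone and 32 held neither. By calls over the gene span, no developmental regulator separated the groups: of 213 Hox and other homeobox genes (the Nkx, Lhx, Irx and Dlx families among them) and Pax, forkhead, Sox, T-box, GATA and Wnt genes, 197 were called in at least 1 wild-type library, 183 in all 4, and 0 in both libraries of a group alone, beside 2.23% and 0.522% of all genes. Other readings did separate a few. A promoter window of Foxp1, a forkhead gene called elsewhere in its span, was covered over 300 bases in WT MET 1 and 2 and 0 in WT VEH 1 and 2, with heights of 16 and 19. Foxi1 was called in WT MET alone with equal interval numbers, and Foxh1 and Foxp1 with summits of height 15 or more. Gata5 and Tbx21, called in all 4, had covered shares at least 20 percentage points higher in both WT VEH libraries. So did 0.401% of all genes called in at least 1 library. Gata5 was covered over 90.4% and 89.3% in WT VEH 1 and 2 and 52.8% and 66.3% in WT MET 1 and 2. All 39 Hox genes were called in WT VEH 1, WT VEH 2, WT MET 1 and the 4 R878H libraries. In WT MET 2, 8 were not, namely Hoxa5, Hoxb13 and the genes from Hoxb9 to Hoxb4. The region from Hoxb13 into the Hoxb3 span (chr11:96082401-96326000) was covered over 231.8 kb, 223.4 kb and 219.6 kb in WT VEH 1, WT VEH 2 and WT MET 1 and over 0 kb in WT MET 2, within a stretch of 298.6 kb that held no interval of that library. Whether the mark was absent there or intervals of WT MET 2 are missing from the files used here was not tested, and the 0 kb is given with that limit. The 4 R878H libraries covered 201 kb to 239.4 kb of it. The region at Ret, a receptor tyrosine kinase gene (chr6:118184201-118209000), was missing from WT MET 2 in the same way, and covered over 15.6 kb to 21.0 kb in the other 3. No region whose summits ranked above the 90th percentile in 3 wild-type libraries was missing from WT VEH 1, WT VEH 2 or WT MET 1.

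Signalling ligands and receptors gave single genes. Of 55 called genes of the BMP, GDF, FGF and TGF-beta families, Bmp5 and Gdf5 were called in WT MET alone, 3.64% beside 2.23% of all genes. Gdf5, a joint-forming ligand, was covered over 40.7% and 100% of its span in WT MET 1 and 2 at the edge of a shared region, and Bmp5, a bone morphogenetic ligand, over 2.72% and 1.76% at a discrete site. Of 13 Toll-like and NOD-like receptor genes, Naip1 and Tlr7 were called in WT MET alone (15.4%, beside 2.23% of all genes) and Tlr8 in WT VEH alone (7.69%, beside 0.522%). Tlr7 and Tlr8 encode endosomal sensors of single-stranded RNA and are neighbours on the X. Tlr7 was covered over 16.2% and 27.9% of its span in WT MET 1 and 2 and 0% in WT VEH, and Tlr8 over 12.4% and 28.5% in WT VEH 1 and 2 and 0% in WT MET. The summits were at heights of 9 to 14, and RH VEH 2 called both genes.

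Among receptors and channels, Trpc2, Adgrl4 (an adhesion receptor of endothelium), Gpr142 and Gpr137b were called in WT MET alone. Adgrl4 held the mark on its promoter, over 1.04% and 2.91% of a span of 107 kb. Of 65 called olfactory receptor genes the 3 on chromosome 11 were called in WT MET alone (4.62%, beside 2.23% of all genes) and Olfr159 in WT VEH alone (1.54%, beside 0.522%). The number of olfactory receptor genes called was 27 and 42 in WT VEH 1 and 2 and 33 and 53 in WT MET 1 and 2, so that the groups overlapped. The genes Vmn1r4, Cdh26, Krt20, Adamts12, Arhgef11, Arhgef38, Zfp109 and Zfp870 of other families were also called in WT MET alone, and the promoters of Adamts12, Arhgef11 and Arhgef38 were covered.

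Solute carriers form the list with the most called genes, 209, of which 156 were called in all 4 libraries. Called in WT MET alone were Slc2a12, Slc6a18 (an amino acid transporter of the kidney), Slc26a8 (an anion transporter of sperm), Slc27a6 (a fatty acid transport protein), Slc29a2 (the nucleoside transporter ENT2) and Slc10a3. Called in WT VEH alone were Slc25a33 (a mitochondrial pyrimidine carrier), Slc6a21, Slco2b1 (an organic anion transporter) and Slc66a2. The shares, 6 and 4 of 209, stand beside 2.23% and 0.522% of all genes. Slc10a3 was covered over 76.2% and 100% of its span, Slc26a8 over 13.9% and 16.5%, and the other 4 called in WT MET alone over at most 38.2%. Those called in WT VEH alone were covered over at most 41.1%.

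**Figure D5:**
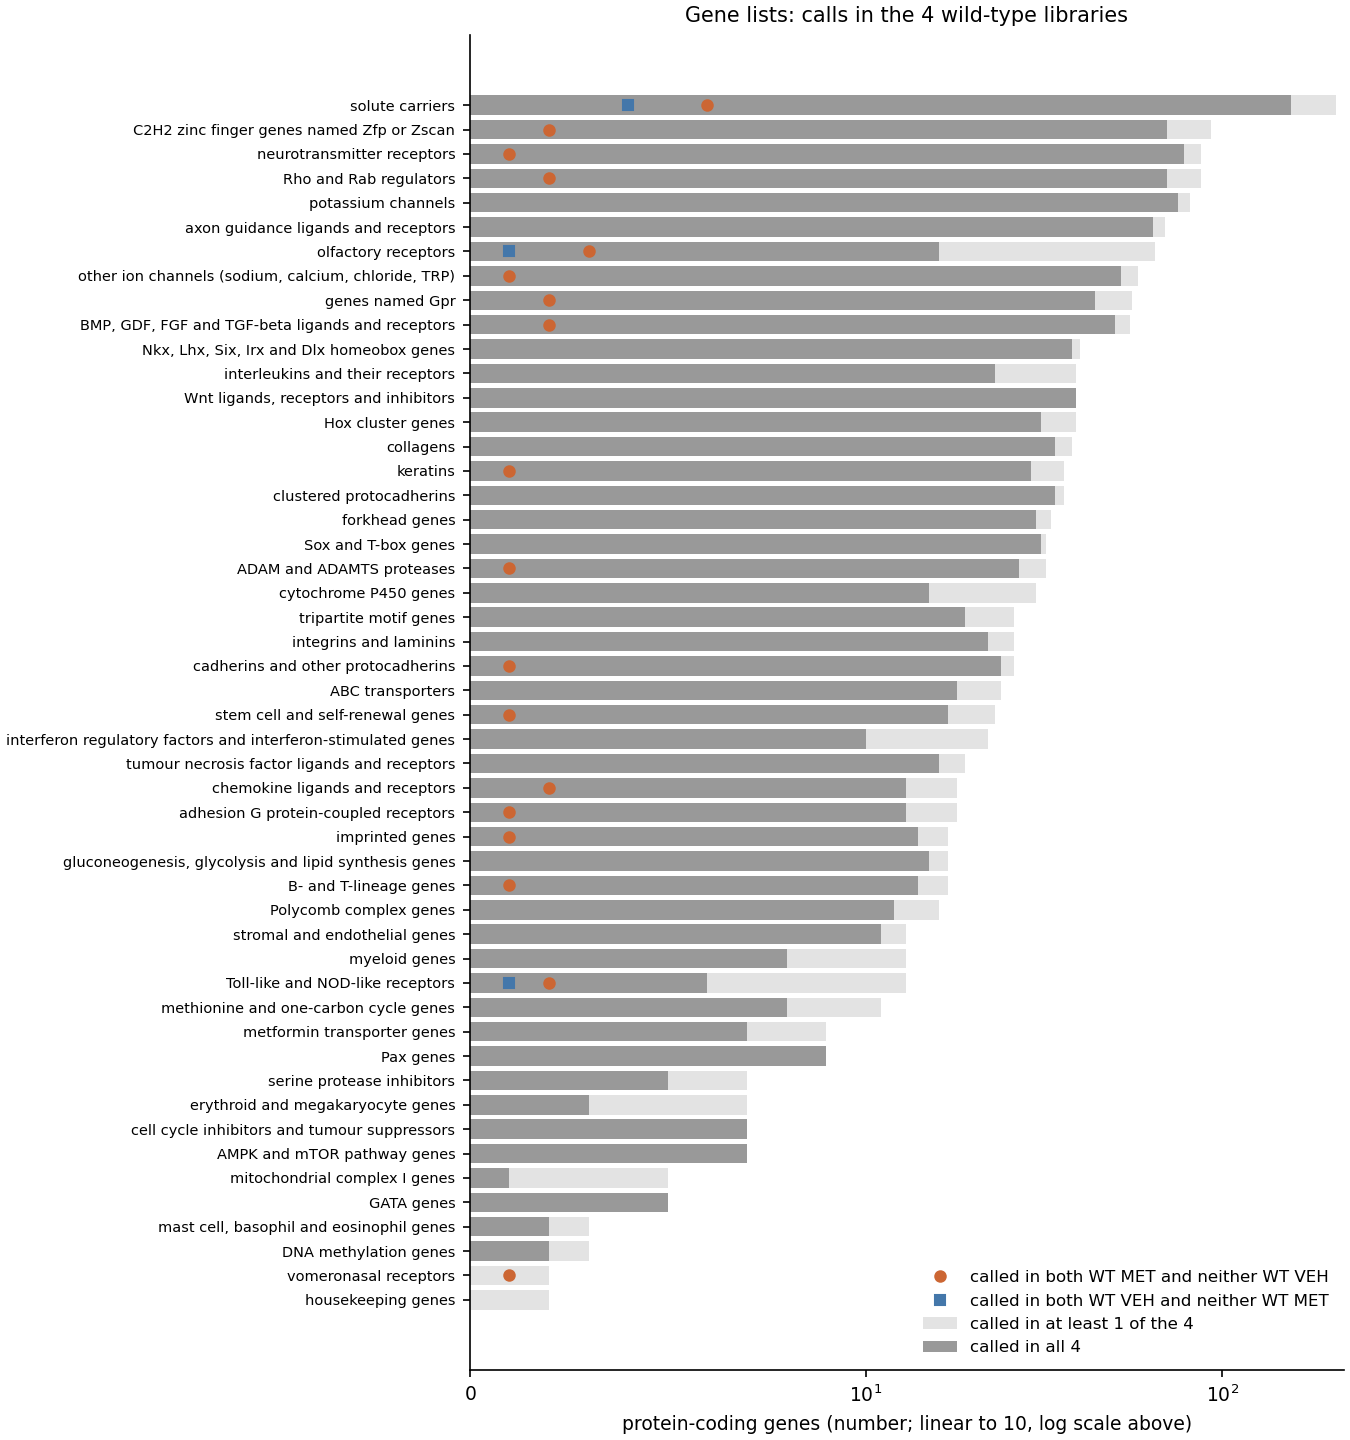
Number of protein-coding genes per list that were called in at least 1 (light bars) or all 4 (dark bars) of the wild-type libraries, on an axis that is linear to 10 and logarithmic above. Orange circles give the genes called in WT MET alone and blue squares those called in WT VEH alone, where there are any. Solute carriers reach 6 and 4, and lists of developmental regulators have neither mark.

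Lists that bear on metformin, among them its transporters, AMP-activated kinase, complex I, one-carbon and Polycomb genes, held no separating gene by calls over the span. With 3 to 17 called genes each, a count of 0 is near the 2.23% and 0.522% of all genes. Under other settings some did separate: Gnmt, Acaca and Acacb were called in WT MET alone with summits of height 15 or more, Ndufa8 and Pfkfb1 by their promoter windows, and Pfkm in WT VEH alone with equal interval numbers. Of 12 metformin transporter genes 9 were called, 7 in all 4 libraries. Of all 21887 protein-coding genes 8236 were called, 6088 in all 4. Slc47a1, which encodes the exporter MATE1, was covered over 83.1% and 100% of its span in WT VEH 1 and 2 and 97.7% and 100% in WT MET 1 and 2, and Slc29a4, which encodes the monoamine transporter PMAT, over 97.3% and 79.7%, and 72.4% and 75%. Slc22a3, the cation transporter OCT3, was covered over 3.08% to 4.45%.

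Several genes of these lists that all 4 libraries called had covered shares that did not overlap between the groups. Over all 6088 genes called in all 4, the share was higher in both WT MET libraries in 1027 (16.9%) and in both WT VEH libraries in 467 (7.67%). The crossed pairing gave 21.3% and 5.44%, and replicate number 14.4% and 9.1%, so an order of this kind is common among any 2 pairs of these libraries. With that background, Prkag3, a muscle subunit of AMP-activated kinase, was covered over 40.5% and 34.8% in WT VEH 1 and 2 and 67.0% and 90.5% in WT MET 1 and 2. Shmt2, the mitochondrial serine hydroxymethyltransferase of one-carbon metabolism, was covered over 58.7% and 42.8%, and 81.2% and 77.5%. Flt3, a cytokine receptor gene of multipotent progenitors, went the other way and was covered over 24.5% and 26.2% in WT VEH 1 and 2 and 9.59% and 15.9% in WT MET 1 and 2. The Polycomb genes Epop and Cbx8 were covered over 100% in all 4, and Dnmt3a over 4.96% to 7.09%.

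A count of genes whose covered share differed by at least 20 percentage points between every library of the groups was added after the data were seen. It gave 132 genes higher in WT MET, 1.6% of 8236, and 33 higher in WT VEH, 0.401%, against 134 and 40 by replicate number and 119 and 38 by the crossed pairing. Of the 132 genes 52 were called in all 4 libraries, and of the 33 genes 20 were. Rab39b, a neuronal small GTPase gene on the X, had the largest gap of those higher in WT MET, with 23.1% and 19.9% covered in WT VEH 1 and 2 and 84.5% and 91.0% in WT MET 1 and 2. Ereg, the epiregulin gene, was covered over 16.7% and 20.9%, and 66.1% and 66.1%. H2-Ab1, an MHC class II beta chain gene, was covered over 41.6% and 35.5%, and 73.9% and 70.6%. Higher in WT VEH were Plin1, a lipid droplet gene, with 99.1% and 83.8% against 27.6% and 29.3%, Tbx21, the T-bet gene, with 91.9% and 100% against 58.4% and 60.8%, and Bok, a BCL2-family gene, with 61.1% and 68.9% against 33.6% and 31.6%.

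The regions called in WT VEH alone were few, and most lay between genes. The 10 with the largest cover include one 5.37 kb from Aldh1l1, a folate enzyme gene (chr6:90534601-90545400), covered over 9.8 kb and 10.8 kb in WT VEH 1 and 2 and 0 kb in every other library. One 5.66 kb from Lonrf1 (chr8:36197801-36210400) was covered over 10 kb and 9.2 kb in WT VEH 1 and 2 and, in the R878H libraries, over 10 kb and 9.0 kb in RH MET 1 and 2 and 0 kb in RH VEH. One over Fyb2, an adaptor gene (chr4:104882001-104893000), was covered over 8.0 kb and 10.8 kb, and one 6.10 kb from Cbfa2t2, a transcriptional corepressor gene of the ETO family (chr2:154421401-154430000), over 8.6 kb and 7.8 kb. The highest summits ranked at percentiles of 50.7 and 61.2, at a site 17.0 kb from Smim41, and 46.2 and 58.5, at one 34.3 kb from Ndufa10.

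Among genes called in WT VEH alone, those covered over most of their span were at edges. Pdzd3, a scaffold gene of epithelia, was covered over 97.9% and 79.2%, Gpx5, an epididymal glutathione peroxidase gene, over 72.6% and 85.3%, and Sap25, a Sin3-associated gene, over 63.1% in both. Promoter windows were covered in 13 of the 39 genes that had one. They include P2ry10b and Snx8, at discrete sites, and Icmt, Mpnd, Hilpda and Prdm4, at edges. Hilpda, a hypoxia-induced lipid droplet gene, was covered over 17.3% and 3.81% of its span in WT VEH 1 and 2.

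The 718 and 85 regions were followed into the R878H libraries, which their choice did not use. RH VEH 1 and 2 called 84 (11.7%) and 233 (32.5%) of the 718, and RH MET 1 and 2 called 305 (42.5%) and 248 (34.5%). RH MET 1 and 2 were above both RH VEH libraries, and the gap between RH MET 2 and RH VEH 2 was smaller than the gap between the RH VEH libraries. Over all 16431 regions the shares were 47.9%, 60.5%, 65.4% and 62.0% in the same order. RH VEH 1 had the fewest intervals of all 8 libraries, 11620, and covered 80.0 Mb against 122.2 Mb to 155.0 Mb in the other R878H libraries. No R878H library called 216 of the 718 (30.1%). The 85 regions called in WT VEH alone were called at 9.41%, 27.1%, 29.4% and 31.8% in the same order, also more often in the RH MET than in the RH VEH libraries. Of the 85, 5 (5.88%) were called in RH MET alone and 1 in RH VEH alone.

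Of the 718 regions 58 (8.08%) were called in both RH MET libraries and neither RH VEH library, and 6 the other way. That count was 75 without RH VEH 1, 99 without RH VEH 2, 125 without RH MET 1 and 155 without RH MET 2. It was 17 with equal interval numbers, and 90 to 168 with 1 wild-type library left out (90 without WT VEH 1, 168 without WT VEH 2, 122 without WT MET 1, 95 without WT MET 2). Over all 16431 regions the shares were 3.72% and 0.280%, and among regions of the other wild-type pairings 5.45% to 8.83% were called in RH MET alone, so the share for treatment lay within that range. Among R878H libraries 739 of 14806 regions were called in RH MET alone (4.99%) and 54 in RH VEH alone (0.365%), and the 58 shared regions make up 7.85% of the 739. Over Ereg the cover was 9.8 kb and 8.8 kb in WT MET 1 and 2 and 2.2 kb and 4.4 kb in RH MET 1 and 2, and 31.2 kb from Hey1, a Notch target gene, it was 8.2 kb and 8.8 kb in WT MET 1 and 2 and 8.6 kb and 7.8 kb in RH MET 1 and 2. Genes called in both metformin groups and neither vehicle group numbered 15 of the 184 (8.15%). Of the 43 genes called in WT VEH alone, 3 (6.98%) were called in RH MET alone, and of all 8236 genes 202 (2.45%) were. The 15 include Cxcl9, Limk1 (a kinase of the actin cytoskeleton), Lrrk2 (a kinase of vesicle traffic), Nr1i2 (the xenobiotic receptor PXR), Pdgfd, Srgap3, Tdrkh, Fbxo10, Zbed3 and Rd3l. At most of them a small part of the span was covered, for example 1.26% and 1.96% of Lrrk2 in WT MET 1 and 2 and 0.558% and 1.26% in RH MET 1 and 2.

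Near the 1 bp limit the calls rest on a few bases. Pml was called in WT MET alone with 22 bp in WT MET 1 and Svs3b with 43 bp, while Mta1 failed to separate because of 6 bp in WT VEH 1 and Krit1 because of 115 bp in WT VEH 2. In the other direction Dipk2b was inside with 34 bp and Sephs1 with 37 bp, and Ndufa10 outside with 25 bp and Ogfr with 37 bp.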

How the data were processed

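H3K27me3 chromatin immunoprecipitation sequencing was read on a NovaSeq 6000, per the labels, from 4 wild-type, 4 R878H and 1 input library, the last not analysed here. The submitters' processing notes list bcl2fastq 2.20, BWA 0.7.12 and the mm10 build but say nothing of what each was used for. How intervals were called, how reads were filtered, the depth and any use of the input: not given in the sources used here.

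The authors deposited intervals and summits for each library and regions merged over all 8. Summit height is a score in the deposited file, in whole numbers with no unit named. It served here to rank intervals within a library and, as an alternative, with a minimum of 15. All 18556 deposited regions were rebuilt from the intervals.

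Regions, spans of 21887 protein-coding genes and 21263 promoter windows (250 bases before to 50 after the start, 17492 genes) of RefSeq GRCm38.p6, which gives no exons here, were overlapped with intervals in Python 3.11.15 with pandas 2.3.3, numpy 2.4.6 and scipy 1.17.1, after tests on simulated intervals. Library totals were compared by two-sided exact permutation. Of 4417 list genes 4416 were matched. Named were, per direction, the 10 regions with the largest cover, the 6 with the highest summit rank, the 10 genes with the largest covered share, up to 4 separating genes per list and up to 8 genes with a covered promoter, and anchors. Others were chosen after their values were seen. The members and lists were chosen with earlier results of these data known. Alternatives were equal interval numbers, a minimum summit height, autosomes alone, larger overlaps, other regions or windows, and leaving out each library. Some items are not reported here.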

Additional observations from a re-analysis of the deposited data

Results flagged for a closer look

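The results below had both libraries of a wild-type group on one side and the R878H libraries on the opposite side. The difference between the genotypes was not tested. Values are the mean covered length in WT MET minus that in WT VEH.

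Called in WT MET and RH VEH alone were 6 regions. They lay over Dntt (7.10 kb), over Zkscan7 and Zfp660 (5.30 kb), over Nav2 (5.80 kb), 0.097 kb from Golga7 (6.60 kb), 52.4 kb from Nanos1 (13.4 kb) and 210 kb from Dact1 (3.0 kb). By gene span, Dntt differed by 5.43 kb and Kdm3b, a histone demethylase gene, by 0.270 kb.

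Called in WT VEH and RH MET alone were 5 regions, 5.66 kb from Lonrf1 (-9.60 kb), 49.2 kb from Cmpk2 (-6.90 kb), 0.752 kb from Izumo2 (-6.30 kb), 24.7 kb from Aco1 (-7.00 kb) and 8.69 kb from Proser2 (-10.9 kb). In the last, WT VEH 1 covered 19.0 kb and WT VEH 2 covered 2.8 kb. By gene span the differences were -0.584 kb for Olfr159, -0.313 kb for Hilpda and -0.609 kb for Saa4. Among all 16431 regions 0.280% were called in RH VEH alone and 3.72% in RH MET alone.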

How the results depend on the processing

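WT VEH 1 held the fewest intervals, and the counts moved with each library left out. Leaving out 1 wild-type library gave 1020 to 2486 regions called in WT MET alone and 198 to 1094 in WT VEH alone, 327 to 571 and 108 to 220 genes, 54 to 94 list genes in WT MET alone against 31, and 90 to 168 regions shared with RH MET alone against 58. Without WT VEH 1 the VEH count (1094) exceeded the MET count (1020). Without WT MET 1, WT MET 2 and WT VEH 2 in turn the counts were 2486 and 198, 1931 and 310, and 2078 and 404. Leaving out an R878H library gave 75 to 155 shared regions. The difference in intervals was 374 to 4624 and in cover 4.59 Mb to 42.7 Mb.

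The same number of intervals per library gave 320 and 183 regions, 67 genes in WT VEH alone (123 in WT MET alone) and 17 regions shared with RH MET alone. A minimum height of 15 gave 586 and 6 regions and 264 and 24 genes. Cover of at least 50% of a region gave 930 and 170 regions, 29 of the first shared with RH MET alone. Cover of at least 20% of the gene span gave 126 and 35 genes, fewer in total than the 187 that followed replicate number, and 19 list genes. Promoter windows gave 117 and 32 genes. Autosomes alone and regions merged over 4 libraries moved no count by over 1.5 times. The named separating genes and regions had no call in the other group by choice. Apart from the promoter window, the settings run on them can only remove calls, so that a change of direction was not possible. With a minimum height of 15, calls changed for 52 named genes and 22 named regions and stayed for 25 and 7. With equal interval numbers they changed for 35 and 11 and stayed for 42 and 18. Deviations from the group mean had a correlation of r = 0.028 over 18556 regions between libraries of the same replicate number. Whether these libraries share a batch was not tested. With a replicate block, the differences of 2499 intervals and 23.6 Mb had an exact permutation p of 0.5, the smallest that 2 pairs allow.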
